A study of Mus musculus with 6 samples.

Results

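The genes described are 10 imprinted genes known as regulators of growth: H19, Meg3, Dlk1, Peg3, Plagl1, Grb10, Mest, Ndn, Sgce and Peg10. They were picked by gene name from the 34745 genes of the deposited table, as members of the imprinted gene network apart from Igf2, Igf2r and Cdkn1c, and all 10 were present and passed the filter on low counts. The measurements were RNA-seq read counts per gene in NOR-10 cells, an established line of mouse skeletal muscle fibroblasts, with 3 control libraries from cells given PBS and 3 libraries from cells given D-galactose (D-gal, a sugar used to bring on senescence in culture) at 20 mg/mL for 3 days. All 6 libraries came from 1 cell line, and the control cells received no other sugar in place of D-gal. The labels do not say that the libraries of a group came from separate cultures, so p-values measure only the spread between these samples, which may be technical.

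Library totals lay between 16876087 and 20830349 counts in control cells and between 13759108 and 15157064 counts in D-gal cells. With counts thinned to the smallest total, 6 of the 10 genes were called, as without thinning. The fibroblast label was checked against 10 marker genes, of which 9 passed the filter and Lum, with a total of 1 count, did not. Their summed level was 13710 to 14050 CPM (counts scaled by the TMM-scaled library size, on which all sums over lists are given) in control cells and 7299 to 7628 CPM in D-gal cells. In edgeR's test 7 of the 9 fell, against 17.8% lower among all genes tested. These included the collagens Col1a1 and Col1a2 and the matrix protein Fn1, while the growth factor receptor gene Pdgfrb rose (log2 fold change 0.19). Of 8 myogenic genes, the stem cell and myoblast genes Pax7, Myf5 and Myod1 were at 0 in every library, and the others summed with them to 3.27 to 3.65 CPM in control cells and 2.27 to 2.54 CPM in D-gal cells. Only the intermediate filament gene Des passed the filter, and it fell (log2 fold change -0.78). The summed level of the macrophage markers was 4.03 to 16.8 CPM in control cells and 4.28 to 5.4 CPM in D-gal cells, and those of the endothelial, adipocyte and Schwann cell markers were each at most 6.05 CPM in any library. Of 26 cell-cycle genes, 24 fell and none rose in edgeR's test, where 17.8% of all genes tested were lower and 16.9% higher. The summed level of the 26 went from 4847 to 4879 CPM in control cells to 3476 to 3644 CPM in D-gal cells. The part of these shifts in the changes of the imprinted genes was not tested.

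At an imprinted gene, the copy from a single parent is active in most tissues, under the control of DNA methylation marks laid down in the germ line. Many imprinted genes lie in domains where coding genes active on the paternal chromosome sit beside long non-coding RNAs active on the maternal chromosome. As a group they are known for setting fetal and postnatal growth, and in muscle several act on stem cells and their differentiation. Of the 10 genes, H19, Meg3 and Grb10 are known as mainly maternally expressed, and the other 7 as mainly paternally expressed. The counts do not separate the parental copies, and in bulk RNA fewer cells that express a gene cannot be told apart from less RNA per cell.

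Some of the sequence around these genes is shown first, because the results turn on pairs of neighbouring genes and on non-coding RNAs that are also hosts of microRNAs. Dlk1 and Meg3 follow each other on the plus strand of chromosome 12. The 250 bases before a start of each in RefSeq (GRCm38.p6) lie at chr12:109452573-109452822 and chr12:109540746-109540995. Meg3 has a second start there, with chr12:109545148-109545397 before it, which is not printed. Peg3, on the minus strand of chromosome 7, and Usp29, on the plus strand, start 146 bases apart, and the gap between them, at chr7:6730432-6730577, is printed on the strand of Peg3. Capitals mark matches to the cyclic AMP response element TGACGTCA and to the TATA box TATAAA, searched for on both strands. These motifs were chosen after the sequences had been seen.
Dlk1 upstream: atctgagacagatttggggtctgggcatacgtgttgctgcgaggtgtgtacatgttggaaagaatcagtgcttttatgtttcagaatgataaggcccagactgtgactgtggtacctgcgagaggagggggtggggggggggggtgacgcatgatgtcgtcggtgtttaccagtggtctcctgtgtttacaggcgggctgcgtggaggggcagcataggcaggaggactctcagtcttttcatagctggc
Meg3 upstream: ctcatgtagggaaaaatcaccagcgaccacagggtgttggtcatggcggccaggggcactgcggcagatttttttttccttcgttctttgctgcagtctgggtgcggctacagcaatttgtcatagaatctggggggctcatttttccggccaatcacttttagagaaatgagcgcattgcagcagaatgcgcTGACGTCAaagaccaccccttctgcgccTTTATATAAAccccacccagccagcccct
Peg3 to Usp29 gap: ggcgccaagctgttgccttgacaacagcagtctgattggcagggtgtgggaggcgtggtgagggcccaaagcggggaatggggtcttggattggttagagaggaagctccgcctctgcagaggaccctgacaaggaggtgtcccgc

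The Meg3 sequence held 1 match to TGACGTCA and TATAAA on both strands, overlapping each other, whereas the stretches for Dlk1 and for the gap between Peg3 and Usp29 held none. The full 250 bases before Peg3, chr7:6730420-6730669, did hold TGACGTCA, outside the gap and within the span of Usp29. Over the 32851 promoters of the same length in the table, 1.55% held TGACGTCA and 12.4% held TATAAA on either strand. The stretches had 8 CpG dinucleotides for Dlk1 and 10 for Meg3, against a median of 6 over all those promoters, and the shorter gap beside Peg3 had 5. The 250 bases before the second start of Meg3 had 0 CpG and held neither motif. A match is a description of the letters and not a site of binding. The promoter table held entries for 7 of the 10 genes, not for H19, Sgce and Peg10.

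The exons of H19 and Meg3 hold mature microRNAs, printed from RefSeq with the seed, bases 2 to 8, in capitals. H19 on the minus strand of chromosome 7 hosts both arms of miR-675. Meg3 hosts miR-1906 and both arms of miR-770. No seed was shared between them, and the mature microRNAs themselves were not measured here.
miR-675-5p: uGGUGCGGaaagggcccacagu
miR-675-3p: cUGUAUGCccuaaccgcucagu
miR-1906: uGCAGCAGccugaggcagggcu
miR-770-5p: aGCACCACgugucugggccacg
miR-770-3p: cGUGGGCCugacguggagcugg

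Under D-gal, Dlk1, Meg3, Grb10 and Peg10 fell and Peg3 and Sgce rose. The fall of Dlk1 and the rise of Peg3 were the largest of the 10 in each direction, and the call of Peg10 was lost when any single library other than D-gal 3 was left out. Genes are called where the p of the quasi-likelihood test of edgeR, adjusted by the method of Benjamini and Hochberg over the 13407 genes tested, was under 0.05. Counts scaled to a common library size are called normalized counts. The 6 genes called were 60% of the 10, and in the same test 34.8% of all genes tested were called, 16.9% higher and 17.8% lower. With the study's further threshold, a change of at least 2-fold, 1 of the 10 was called, Dlk1, against 4.21% of all genes. The control and D-gal libraries did not overlap for 7 of the 10 genes, or 70%, against 49.1% of all genes tested. These 7 were the 6 called and Ndn, and H19, Plagl1 and Mest overlapped. The median log2 fold change was -0.11 over the 10 genes and 0.0036 over all genes, and the median size of the change was 0.31 and 0.19. Of the 3 maternally expressed genes, 2 fell and none rose. Of the 7 paternally expressed genes, 2 fell and 2 rose.

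**Figure D1:**
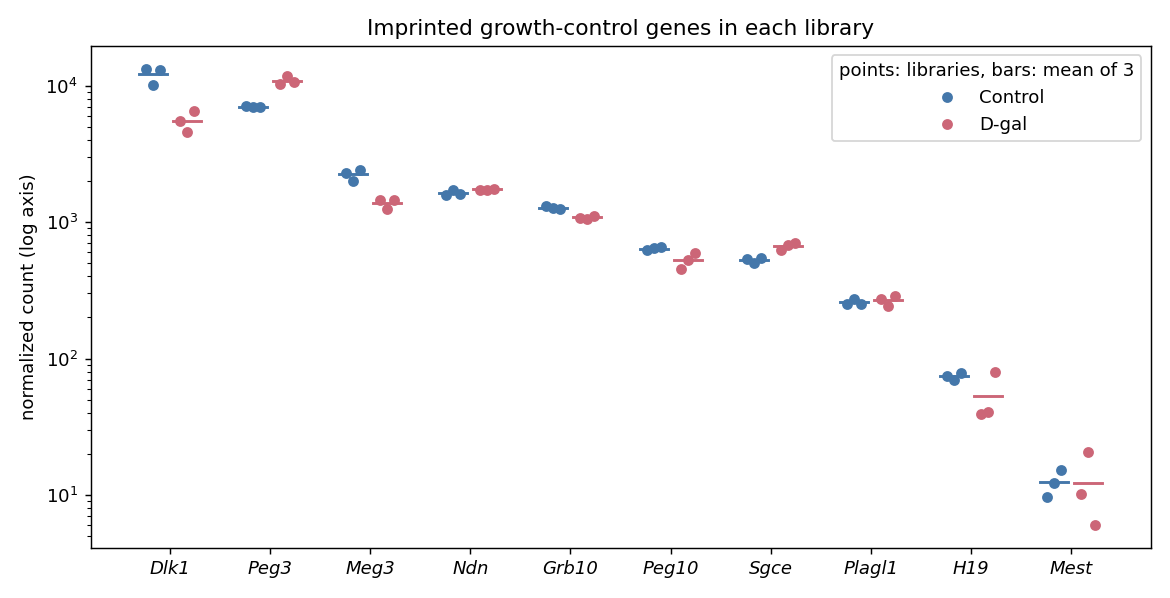
Normalized count of each of the 10 genes (log axis), with 3 control and 3 D-gal libraries as points and the mean of each group as a bar. The D-gal points lie below all control points for Dlk1, Meg3, Grb10 and Peg10, above them for Peg3, Sgce and Ndn, and overlap them in range for H19, Plagl1 and Mest.

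**Figure D2:**
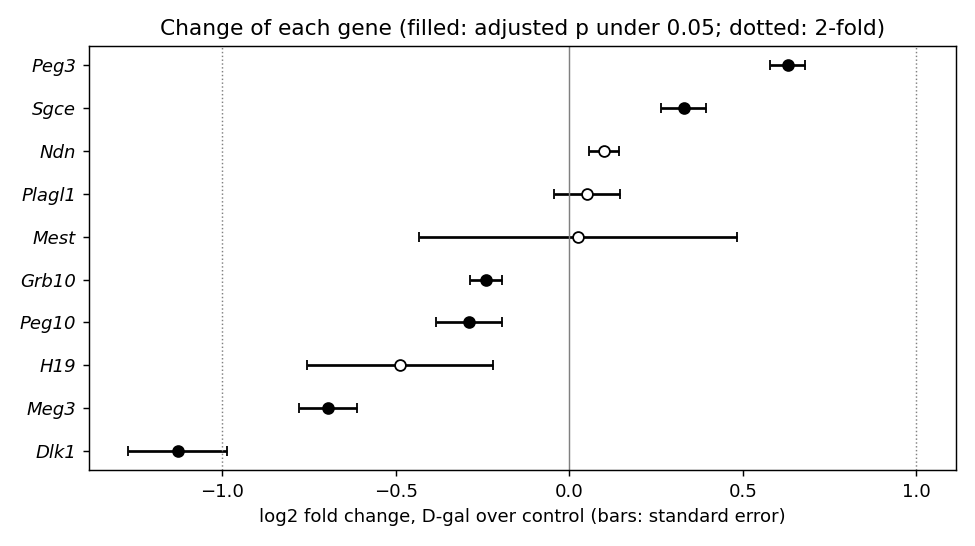
Log2 fold change of each gene, D-gal over control, with its standard error from edgeR, where filled points have an adjusted p under 0.05 and dotted lines mark 2-fold. Dlk1, at -1.13, is the only point beyond a dotted line, and Peg3, at 0.63, is the farthest to the right.

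Dlk1 encodes a membrane protein with EGF-like repeats that is known to restrain the differentiation of precursor cells, fat precursors among them. In GRCm38 (GENCODE M21), Dlk1 (ENSMUSG00000040856) spans chr12:109452823-109463336 on the plus strand. Its normalized counts were 13342, 10134 and 12960 under PBS, against 5497, 4571 and 6588 under D-gal. The highest D-gal library was well below the lowest control library. The means were 12145 ± 1752 and 5552 ± 1009 (SD, n = 3 each), a 2.19-fold decrease (log2 fold change -1.13, SE 0.14, edgeR adjusted p = 6.6e-04). Dlk1 made up 43.0% to 49.1% of all counts of the 10 genes under PBS, against 20.9% to 28.4% under D-gal.

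Meg3 is a long non-coding RNA of the same domain, and acts as a host of small RNAs and as a partner of chromatin proteins. Meg3 (ENSMUSG00000021268) spans chr12:109541001-109571726 on the plus strand, and 77664 bases lie between it and Dlk1. It had 2280, 2012 and 2420 normalized counts under PBS, against 1456, 1242 and 1450 under D-gal. Every D-gal library was again below every control library. Its mean went from 2237 ± 207 to 1382 ± 122 (SD, n = 3 each), a 1.62-fold decrease (log2 fold change -0.69, SE 0.08, edgeR adjusted p = 5.2e-04). On the other strand, Gm26906 overlaps 1228 bases of Meg3's exons and 11.4% of the sequence words of Meg3 occur in other genes. Whether counting used strand is not given in the sources used here, so the reads of the overlap cannot be assigned.

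The ratio of Dlk1 to Meg3 counts, which does not depend on the scaling between libraries, was 5.85, 5.04 and 5.36 in control libraries and 3.78, 3.68 and 4.54 in D-gal libraries. The groups did not overlap, so that the coding gene was lower relative to the non-coding one in each D-gal library. The 4 quantities compared within libraries (this ratio, 2 others and the summed share of the 10 genes) each allow no two-sided exact permutation p below 0.1, which the ratio reached (0.133 adjusted over the 4).

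The other genes of the Dlk1-Dio3 domain were read alongside. Rtl1, a retrotransposon-derived gene, and Dio3, which encodes the deiodinase that inactivates thyroid hormone, are known as paternally expressed, and the non-coding Rian and Mirg as maternally expressed. Dio3 had 273, 224 and 221 normalized counts under PBS, against 110, 92.8 and 108 under D-gal (log2 fold change -1.21, SE 0.13, edgeR adjusted p = 2.9e-04). Rian went from 1381 ± 43.6 to 896 ± 61.2 normalized counts (SD, n = 3 each; log2 fold change -0.62, SE 0.06, edgeR adjusted p = 1.6e-04). Rtl1 was low, with 36 to 43 counts under PBS, against 10 to 19 under D-gal, and fell (log2 fold change -1.15, SE 0.26, edgeR adjusted p = 0.0113). Mirg had 65, 88 and 66 counts in control and 42, 48 and 31 counts in D-gal libraries, and did not pass the test (log2 fold change -0.51, SE 0.19, edgeR adjusted p = 0.0691). Thus 5 of the 6 imprinted genes of the domain fell, and the groups did not overlap for any of the 6. Among all genes tested, 17.8% were lower and 49.1% did not overlap. The log2 fold change was larger in size for each of Dlk1, Rtl1 and Dio3 than for each of Meg3, Rian and Mirg, and of these differences only that of Dlk1 and Meg3 was tested, through their ratio. On the side of the domain before Dlk1, Begain, Wdr25 and Wars had log2 fold changes of 0.18, 0.33 and -0.07 and none passed the test. Rtl1, Rian and Mirg overlap annotated small RNA genes, and reads of those overlaps cannot be assigned.

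**Figure D3:**
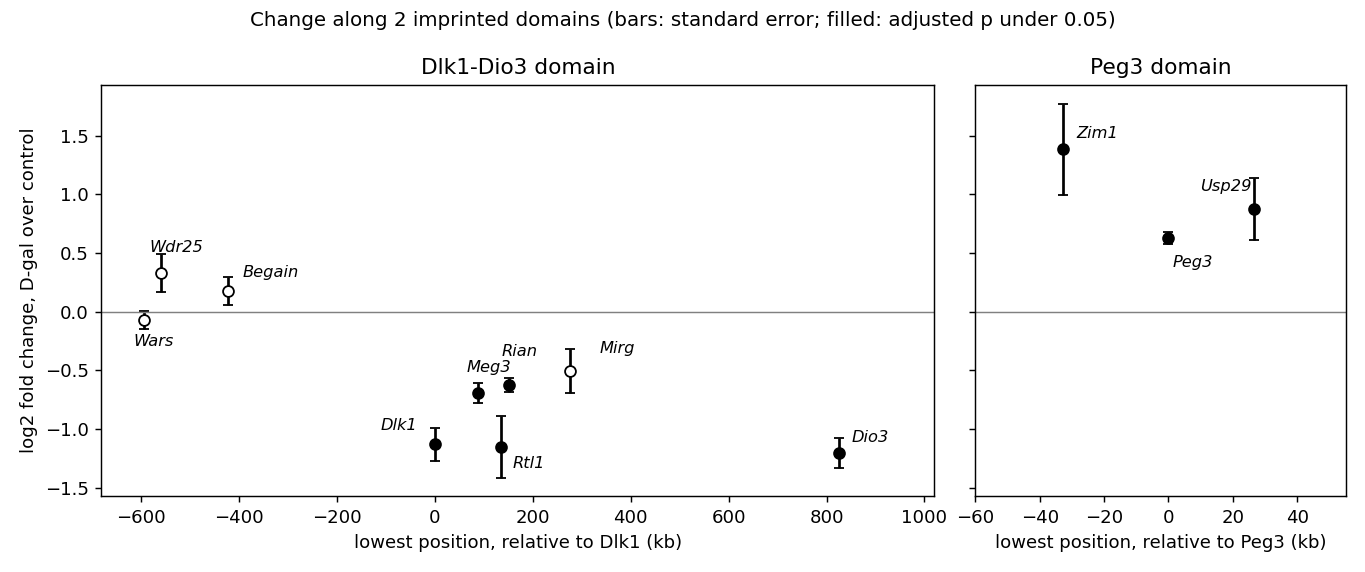
Log2 fold change (D-gal over control, with standard error) of the tested genes of the Dlk1-Dio3 domain and of the Peg3 domain against the distance in kb of each gene's lowest position from that of Dlk1 or Peg3, where filled points have an edgeR adjusted p under 0.05. From Dlk1 to Dio3 all points lie below 0 and Mirg is the open point among them, while Zim1, Peg3 and Usp29 lie above 0.

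Peg3 encodes a large zinc finger protein that binds DNA and is known for its part in muscle stem cells and in cell death pathways. Peg3 (ENSMUSG00000002265) spans chr7:6703892-6730431 on the minus strand. It had 7149, 6939 and 6957 normalized counts under PBS, against 10233, 11747 and 10590 under D-gal. The control libraries lay close together and every D-gal library was at least 1.43 times the highest of them. The means were 7015 ± 116 and 10857 ± 791 (SD, n = 3 each), a 1.55-fold increase (log2 fold change 0.63, SE 0.05, edgeR adjusted p = 7.2e-05), which was the smallest p of the 10 genes. Peg3 and Dlk1 changed places as the gene with most counts. The ratio of Peg3 to Dlk1 was 0.536, 0.685 and 0.537 in control libraries and 1.86, 2.57 and 1.61 in D-gal libraries (two-sided exact permutation p = 0.1, 0.133 adjusted over the 4 quantities). Every D-gal library was above every control library for Peg3 and below every one for Dlk1. This ratio therefore had to separate, and its p adds nothing to the results of the single genes.

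Among the neighbours of Peg3, Usp29 encodes a ubiquitin-specific peptidase and begins across the 146-base gap printed above, and Zim1 encodes a zinc finger protein. Usp29 had 37, 38 and 26 counts in control and 58, 59 and 29 in D-gal libraries (log2 fold change 0.88, SE 0.27, edgeR adjusted p = 0.0359). That call was lost with DESeq2 (adjusted p = 0.0642), with limma on log2(FPKM + 1) (adjusted p = 0.113) and without any single library other than D-gal 3 (edgeR adjusted p = 0.0718 to 0.116). The exons of Usp29 and Zim3 overlap by 2582 bases on opposite strands, so some of these few counts cannot be assigned. Zim1 had 28, 11 and 17 counts in control and 38, 28 and 49 in D-gal libraries (log2 fold change 1.38, SE 0.39, edgeR adjusted p = 0.0267). Its call was lost with limma (adjusted p = 0.0504) and without Control 2, Control 3, D-gal 1 or D-gal 3 (edgeR adjusted p = 0.0605 to 0.0884).

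By the Euclidean distance between log2 normalized counts centred on their mean over the 6 libraries, the genes most like Peg3 among 9206 with a mean of at least 200 were Notch3 (distance 0.0655), Nuak1 (0.0778) and Glt8d2 (0.0784). The median distance over those genes was 0.829. Notch3 encodes a Notch receptor and Nuak1 a kinase related to AMPK, and their log2 fold changes were 0.59 and 0.61, beside 0.58 for Glt8d2. The distance includes the difference between the groups, so fold changes near that of Peg3 follow from the choice.

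Sgce and Peg10 are neighbours on chromosome 6 that point away from each other, with 98 bases between them. Sgce encodes epsilon-sarcoglycan, a membrane protein of the dystrophin-associated complex, and Peg10 a gag-like protein derived from a retrotransposon. Sgce (ENSMUSG00000004631, chr6:4674350-4747207, minus strand) had 541, 505 and 546 normalized counts under PBS, against 627, 676 and 698 under D-gal. Its mean rose 1.26-fold, from 531 ± 22.5 to 667 ± 36.0 (SD, n = 3 each; log2 fold change 0.33, SE 0.07, edgeR adjusted p = 0.00589). Peg10 (ENSMUSG00000092035, chr6:4747306-4760517, plus strand) had 621, 645 and 655 normalized counts under PBS, against 452, 527 and 593 under D-gal. Its mean went from 640 ± 17.4 to 524 ± 70.3 (SD, n = 3 each), which just passed the test (log2 fold change -0.29, SE 0.09, edgeR adjusted p = 0.0468). The D-gal libraries of Peg10 were spread more widely than the control libraries, and the call was lost without Control 1, 2 or 3 or D-gal 1 or 2 (edgeR adjusted p = 0.0824 to 0.113) and with limma (adjusted p = 0.115).

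Within each library, the ratio of Peg10 to Sgce counts was 1.15, 1.28 and 1.20 in control and 0.721, 0.780 and 0.850 in D-gal libraries. Thus Peg10 had more counts than Sgce in every control library and fewer in every D-gal library (1.21 ± 0.064 and 0.784 ± 0.064, SD, n = 3 each, two-sided exact permutation p = 0.1, 0.133 adjusted over the 4). Neither gene overlapped between the groups, and they moved in opposite directions. The ratio could therefore not overlap, and its p adds nothing to the results of the single genes. Of 3 other genes of the domain that could be tested, Casd1, Pon2 and Pon3, none was called by edgeR, DESeq2 or limma, and Pon2 alone had an unadjusted p under 0.05 in edgeR (log2 fold change -0.18).

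**Figure D4:**
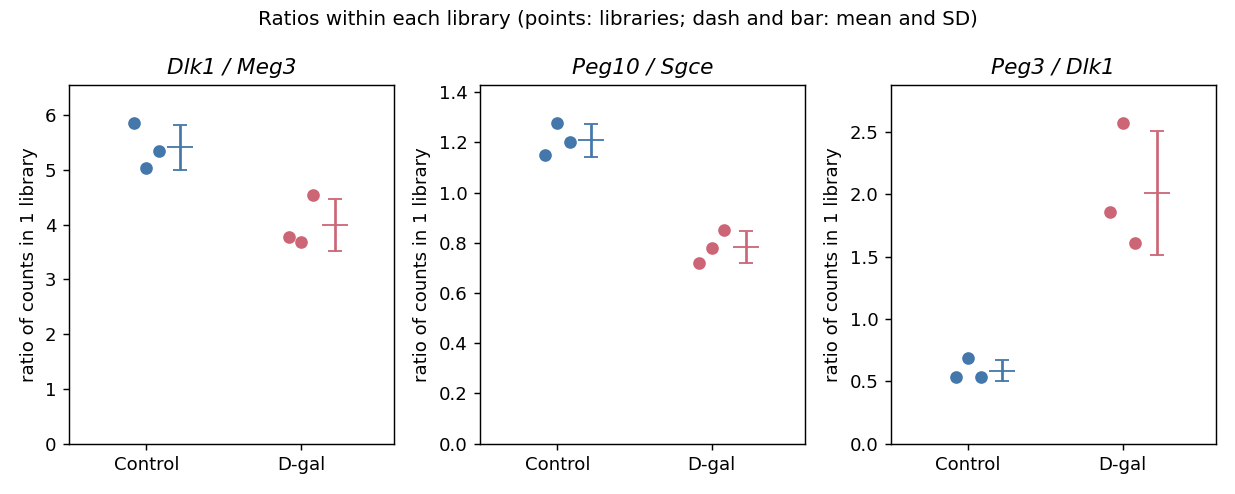
Ratios of counts within each library for Dlk1 over Meg3, Peg10 over Sgce and Peg3 over Dlk1, with libraries as points and mean and SD (n = 3) as a dash with bars. No ratio overlaps between control and D-gal libraries, and those of Peg10 over Sgce lie on both sides of 1. For Peg10 over Sgce and Peg3 over Dlk1 the separation follows from that of the single genes, which moved in opposite directions.

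The partners of these proteins were looked at by lists. Of 10 tested genes of the dystrophin complex, 4 fell and none rose in edgeR's test (against 17.8% lower among all genes). They were Sspn (sarcospan, log2 fold change -0.45), Sgcb (beta-sarcoglycan, -0.51), Utrn (utrophin, -0.13) and Sntb1 (-1.87), which had 63 counts in total. DESeq2 called 3 lower and none higher, and limma 3 lower and 1 higher. Of 7 tested genes related to retrotransposon gag proteins, Arc rose (log2 fold change 0.42) and Rtl1 fell, and the other 5 did not pass edgeR's test, which called 34.8% of all genes. Of those 5, Rtl6 and Rtl8c (log2 fold changes 0.54 and 0.41) had an unadjusted p under 0.05 in edgeR. Limma called 3 of the 7 higher and 1 lower.

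Grb10 encodes an adaptor protein that binds the insulin and IGF1 receptors and restrains their signals. Grb10 (ENSMUSG00000020176) spans chr11:11930508-12038683 on the minus strand. It had 1318, 1271 and 1250 normalized counts in control and 1082, 1050 and 1117 in D-gal libraries. The difference was small but larger than the spread, with means of 1280 ± 34.5 and 1083 ± 33.3 (SD, n = 3 each), a 1.18-fold decrease (log2 fold change -0.24, SE 0.05, edgeR adjusted p = 0.00484). Of 11 tested genes of receptors, substrates and adaptors around Grb10, 2 rose, the IGF1 receptor Igf1r (log2 fold change 0.23) and the receptor substrate Irs1 (0.32), and 4 fell. Those that fell were the kinase subunit Pik3r1 (-0.48), the related adaptor Grb14 (-0.58), Gigyf1, which binds Grb10 (-0.44), and the insulin receptor Insr (-0.15). DESeq2 and limma each called 2 of the 11 higher and 3 lower. In edgeR, 16.9% of all genes tested were higher and 17.8% lower. Neither of the 2 tested neighbours of Grb10, Cobl and Fignl1, was called by edgeR, DESeq2 or limma or had an unadjusted p under 0.05.

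Ndn encodes necdin, a MAGE family protein that binds E2F factors and is known in muscle and nerve precursors. Ndn (ENSMUSG00000033585, chr7:62346569-62350262, plus strand) had 1570, 1711 and 1598 normalized counts in control and 1730, 1734 and 1764 in D-gal libraries. The groups did not overlap, but the lowest D-gal library was only 1.01 times the highest control library, and the difference did not pass the test (log2 fold change 0.10, SE 0.04, edgeR adjusted p = 0.114). Limma on log2(FPKM + 1) did call it (adjusted p = 0.0312). None of 8 tested MAGE genes and E2F partners was called by edgeR, DESeq2 or limma, and 2 had an unadjusted p under 0.05, both lower, E2f4 and Maged2 (log2 fold changes -0.12 and -0.23). The region of Ndn corresponds to the Prader-Willi and Angelman region. Of 6 tested genes listed for it, 1 rose, 1 fell and 4 were not called, a share near the 34.8% called among all genes. Snhg14, a non-coding RNA that hosts small nucleolar RNAs, rose (log2 fold change 0.40, edgeR adjusted p = 0.0367). Atp10a, a phospholipid flippase, fell (-0.51, edgeR adjusted p = 1.7e-04). The tested genes closest to Ndn, Mkrn3 and Peg12, did not pass the test (log2 fold changes -0.13 and -0.04). Snhg14 overlaps Ube3a on the other strand, and DESeq2 did not call it.

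H19 is a long non-coding RNA known for restraining growth in the embryo. H19 (ENSMUSG00000000031, chr7:142575529-142578143, minus strand) had 74.9, 69.4 and 77.8 normalized counts in control and 39.3, 40.4 and 79.5 in D-gal libraries. The D-gal 3 library lay above all control libraries while D-gal 1 and 2 lay below them, so the groups overlapped. The difference did not pass the test (log2 fold change -0.49, SE 0.27, edgeR adjusted p = 0.200), and without D-gal 3 it did (-0.89, edgeR adjusted p = 0.01). At 35 to 86 counts per library, H19 was among the low genes of the 10. Of 7 tested genes linked to the let-7 microRNAs, which H19 is known to bind, 3 fell, Hmga2 (log2 fold change -0.49), Igf2bp3 (-0.29) and Dicer1 (-0.18), and none rose, where 17.8% of all genes were lower. None of the 4 tested genes beside H19 was called by edgeR, DESeq2 or limma or had an unadjusted p under 0.05.

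Plagl1 encodes a zinc finger protein that is known to regulate other imprinted genes. Plagl1 (ENSMUSG00000019817, chr10:13060504-13131694, plus strand) had 249, 274 and 250 normalized counts in control and 272, 242 and 289 in D-gal libraries. The groups overlapped, with a log2 fold change of 0.05 (SE 0.10, edgeR adjusted p = 0.714). Its relatives Plag1 and Plagl2 were not called by edgeR, DESeq2 or limma, nor was their unadjusted p under 0.05. Of 3 tested genes listed for its region, Phactr2, which encodes a regulator of protein phosphatase and actin, fell (log2 fold change -0.33, edgeR adjusted p = 0.00343).

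Mest encodes an enzyme-like protein of the alpha/beta hydrolase fold, and had few counts. Mest (ENSMUSG00000051855, chr6:30723547-30748465, plus strand) had 11, 15 and 15 counts in control and 9, 19 and 5 in D-gal libraries. No difference was detected (log2 fold change 0.02, SE 0.46, edgeR adjusted p = 0.974). Copg2, a coat protein gene on the other strand, overlaps 912 bases of its exons, so some of these counts cannot be assigned to Mest. Copg2 itself rose (log2 fold change 0.23, edgeR adjusted p = 0.0409), a call that DESeq2 did not make.

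Levels were compared between genes as CPM per kb of annotated exon. In control libraries the order was Dlk1 (128 ± 18.4 CPM per kb, SD, n = 3), Peg3 (31.4 ± 0.52), Ndn (26.2 ± 1.2), Grb10 (8.39 ± 0.23), Meg3 (7.37 ± 0.68), Peg10 (5.72 ± 0.16), Sgce (2.98 ± 0.13), Plagl1 (1.97 ± 0.11), H19 (1.79 ± 0.10) and Mest (0.186 ± 0.042). No neighbours in that order overlapped between libraries. In D-gal libraries Dlk1 (48.1 to 69.4 CPM per kb) and Peg3 (45.8 to 52.5) overlapped, as did Peg10 (4.04 to 5.30) and Meg3 (4.09 to 4.79), and Plagl1 (1.85 to 2.20) and H19 (0.951 to 1.93). Dlk1 thus stood well above the other 9 genes under PBS and overlapped Peg3 under D-gal. Against 13360 genes with such a level, Dlk1 stood at percentile 97.8 in control libraries, Peg3 at 87.9, Ndn at 85.2 and Mest at 3.08.

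The order depends on the length used. The deposited FPKM values imply a length of 16789 bases for Dlk1 and of 1652 bases for Ndn, where the annotated exons cover 5657 and 3694 bases. The length implied for Dlk1 is longer than its whole span of 10514 bases, so it cannot be the length of its exons. In FPKM, Ndn (56.0 to 60.9) stood above Dlk1 (35.5 to 46.9) in control libraries, an order that rests on that length. Changes between groups for a gene do not depend on the length.

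Summed over the 10 genes, the counts were 1601, 1387 and 1568 CPM under PBS, against 1284, 1320 and 1398 CPM under D-gal. On library totals, used here, these overlapped slightly (two-sided exact permutation p = 0.2, also 0.2 adjusted over the 4), while on TMM-scaled sizes they did not, with 1405 to 1618 CPM under PBS, against 1275 to 1381 CPM under D-gal. Beyond the 10, a list of 62 imprinted genes, some of them imprinted mainly in placenta, was read. It includes Igf2r and the imprinted genes of the domains above. Of 42 that could be tested, 10 were higher and 11 lower, with a median log2 fold change of -0.01. The share called was 50%, beside the 34.8% of all genes. Of 21 paternally expressed ones, 6 rose and 4 fell, and the smallest p values were those of Dio3, Peg13 (a non-coding RNA, log2 fold change 0.60) and Impact (a regulator of the kinase GCN2, 0.22). Of 21 maternally expressed ones, 4 rose and 7 fell, and the smallest p values were those of H13 (a signal peptide peptidase, -0.32), Rian and Atp10a, while Dcn fell most (-1.42). H13 overlaps Gm26841 on the other strand. With DESeq2, 4 paternally expressed ones were higher and 3 lower, and 2 maternally expressed ones higher and 6 lower.

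Of the 3 genes set apart by the choice of members, the mannose 6-phosphate and IGF2 receptor Igf2r fell (log2 fold change -0.18, edgeR adjusted p = 0.0101). Igf2, the growth factor, varied more within groups than between them, with 5442, 1524 and 2234 counts in control and 2391, 879 and 4471 in D-gal libraries (log2 fold change 0.13, SE 0.62, edgeR adjusted p = 0.897). The cell-cycle inhibitor gene Cdkn1c did not pass the test (0.37, edgeR adjusted p = 0.185). Of the sequence words of Igf2, 63.1% also occur in Gm49394 and other genes, so its counts are uncertain.

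Genes that keep or read imprints were also listed. Of 24 tested, 7 fell and 2 rose, a share near the 34.8% called among all genes, with a median log2 fold change of -0.05. Uhrf1, which brings the maintenance methyltransferase to newly copied DNA and shares 24.3% of its sequence words with other genes, fell by 0.61 on the log2 scale, the methyltransferase gene Dnmt1 by 0.30, the cohesin gene Rad21 by 0.40 and the 5-methylcytosine oxidase gene Tet3 by 0.37. Zfp57, whose protein protects imprints in the embryo, rose (log2 fold change 0.39), as did Mbd3, a subunit gene of the NuRD complex (0.17). Methylation itself was not measured. Part of this list is known to follow the cell cycle, and 24 of the 26 cell-cycle genes fell in these libraries, where 17.8% of all genes tested were lower. The smallest p values among the 26 were those of Kif20a (log2 fold change -0.58), Mki67 (-0.62) and Top2a (-0.68), while Ccnb2 fell most (-0.90). The part of the cell cycle in these values was not tested.

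Dlk1 is known for its link to Notch signals and to fat cell differentiation, and 8 genes of that kind were tested. Notch1 (log2 fold change -1.24), Notch2 (-0.21) and Sox9 (-1.25) fell, and Notch3 (0.59) and Dlk2, the closest relative of Dlk1 (0.30), rose, though DESeq2 called only 1 of the rises. In edgeR, 16.9% of all genes tested were higher and 17.8% lower. The fat cell regulators Pparg (-0.05) and Cebpa (-0.44) and the Notch target Hes1 (0.38) did not pass the test. The fat cell genes Adipoq, Plin1 and Lep were too low to be tested, and Fabp4 did not pass the test (log2 fold change 0.24, SE 0.30, edgeR adjusted p = 0.583).

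**Figure D5:**
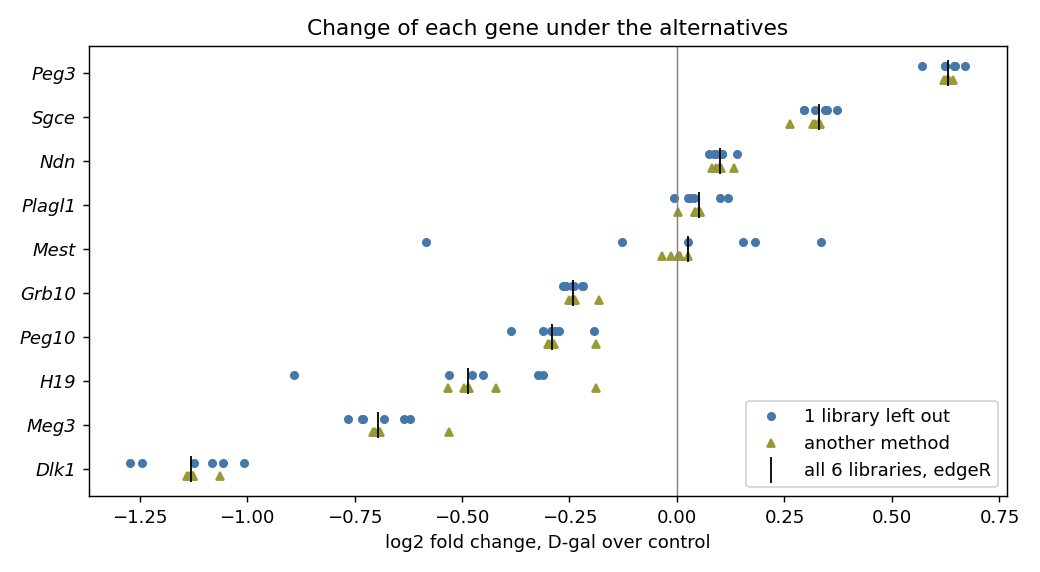
Log2 fold change of each gene (D-gal over control) with all 6 libraries in edgeR (vertical mark), with 1 library left out (circles) and with another method or filter (triangles; that of limma is on the log2(FPKM + 1) scale). Dlk1, Meg3, Grb10, Peg10 and H19 stay below 0 and Peg3, Sgce and Ndn above it in every one, while Mest and Plagl1 cross 0.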

How the data were processed

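Counts and FPKM values came from the deposited table of 6 libraries. The authors deposited a count of reads per gene without normalization. The FPKM values are the authors' own. With these counts and library totals they imply a length for Dlk1 beyond its whole span, so the length they rest on is unclear. Reads were checked with FastQC (0.11.9) and trimmed with Trimmomatic (0.39), according to the methods, and the submitters' processing notes name HISAT2 (2.0.4). The counting tool, its strand setting and the annotation are not given in the sources used here. The labels and the methods name different library kits, the latter for small RNA.

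Groups came from the labels. Counts were tested with edgeR (4.0.16, R 4.3.3), with TMM scaling and filterByExpr, which left 13407 genes. Its quasi-likelihood test compared 3 libraries with 3 without covariates, and p-values were adjusted by Benjamini-Hochberg. The thresholds were those of the study's methods, an adjusted p under 0.05 and a log2 fold change of 1 or more in either direction. For normalized counts, each count was divided by its library's TMM-scaled size and multiplied by the mean size. SE is the log2 fold change over the square root of F. Single values were also compared by an exact permutation test, two-sided, over the 10 groupings of the libraries, which cannot go below 0.1 and gave 0.1 for the 7 genes without overlap. The coefficient of variation between replicates was 9.47%. Positions, overlaps and shared words of 31 bases came from GENCODE M21 (GRCm38), and sequences from RefSeq (GRCm38.p6). Functions were tested on simulated data.

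Alternatives were DESeq2 (1.42.0), RLE size factors, no filter, a minimum of 10 counts in each library, a replicate block, each library left out, limma (3.58.1) on log2(FPKM + 1), and counts thinned to the smallest total. The members and the gene lists were chosen with earlier results of these data known, from general knowledge. All members were named, with Igf2, Igf2r and Cdkn1c, up to 3 genes of smallest p per list, all called domain genes, and 3 genes most like the member of smallest p. The other genes named were chosen after their values were seen. For domain genes, the alternatives were added after seeing the data.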

Additional observations from a re-analysis of the deposited data

How the results depend on the processing

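At an adjusted p under 0.05, 6 of the 10 genes were called with edgeR, DESeq2, RLE size factors, no filter, at least 10 counts in every library, thinned counts and limma, and 5 to 7 with a library left out. Past both thresholds 1 gene was called in each case. Limma on log2(FPKM + 1), a scale that compresses the change of low genes, called 3 higher and 3 lower, with Ndn in and Peg10 out. Over all genes, 564 passed both thresholds, 491 to 572 with a library left out and 120 with limma, and 4661 passed the adjusted p alone, 3651 to 4009 with a library left out.

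Dlk1, Meg3, Peg3, Grb10 and Sgce were called under each of the 13 alternatives. Peg10 was lost with limma (log2 fold change -0.19) and in 5 of the 6 fits that leave out a library (-0.31 to -0.19), and without D-gal 3 H19 was called. Mest could not be tested with at least 10 counts in every library. Deviations from the group means correlated between samples of the same number at -0.0114, -0.00269 and 0.0277, and not every sample correlated best with its own number. Taken over all genes tested, these correlations cannot exclude pairing, and the labels give only a number. A replicate block took the SE from 0.14 to 0.059 for Dlk1 and from 0.084 to 0.042 for Meg3. The SE was also smaller for H19, Peg3 and Peg10, and larger for Grb10, Sgce, Plagl1, Ndn and Mest. With the replicate block, 530 genes passed both thresholds, 3982 the adjusted p alone, and 6 and 1 of the 10. Rtl1, Rian and Dio3 kept their calls under each alternative. Depth limits H19, Mest, Rtl1, Mirg, Usp29, Zim1 and Cdkn1c, which have under 100 counts per library.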

Other observations

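Within 500000 bp of the 10 genes, a window chosen after the data had been seen, 49 other genes were tested, of which 6 were higher and 7 lower. The share called was 26.5%, beside 34.8% of all genes tested. Near Peg3, 3 of 9 tested neighbours were higher, namely Zim1, Usp29 and the zinc finger gene Zfp28 (log2 fold change 0.28), and none lower. The calls of Zim1 and Usp29 were lost in most fits that leave out a library. Near Dlk1, 2 of 5 were lower, namely Rtl1 and Rian, and none higher, with Meg3 not counted among them. Near Sgce 2 of 5 were lower, Col1a2 (log2 fold change -0.97) and Gm43921 (-1.42), and none higher, and the same 5 were counted for Peg10. Gm43921 starts at chr6:4506087, within the span of Col1a2 (chr6:4504814-4541544), so these 2 of the 7 lower genes are not separate loci. Near Plagl1 3 of 8 were lower, Phactr2, Utrn and Stx11 (-0.91), and 1 was higher, Fuca2 (0.61). Near Mest 2 of 7 were higher, Copg2 and 2210408F21Rik (0.72), and none lower. None of the 11 tested near H19, the 2 near Grb10 and the 2 near Ndn was called.

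The control libraries of Peg3 had a coefficient of variation of 1.65%, and those of Dlk1 14.4%, the widest among the genes of the 10 with over 100 counts per library. For Plagl2, a relative of Plagl1, the D-gal libraries were spread widely, with a mean of 647 ± 385 normalized counts (SD, n = 3) against 901 ± 52.1 in control libraries.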
